A study of Mus musculus with 15 samples.

Results

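The genes described here are 10 markers of ductal, basal and myoepithelial progenitors of the salivary gland, namely Kit, Krt5, Krt14, Sox2, Sox9, Sox10, Ascl3, Trp63, Ly6a and Prom1. They were taken by symbol from the deposited count table, where all 10 were found among 21013 gene symbols and all 10 were among the 16042 genes with enough reads to be tested. RNA sequencing was done on whole submandibular glands (SMG) of wildtype male C57BL/6 mice aged 8 to 10 weeks. The 5 groups of 3 libraries were glands irradiated with 15 Gy, given weekly iEV injections into the gland from day 1 and collected at day 30 (IR + iEV day 30), glands irradiated with 15 Gy alone and collected at day 30 (IR day 30), irradiated and iEV-injected glands collected at day 4 (IR + iEV day 4), irradiated glands collected at day 4 (IR day 4), and glands that were not treated (NT). The labels do not spell out iEV beyond this name, list no vehicle-injected group, and give neither the day on which NT glands were collected nor whether the 3 libraries of a group came from separate mice. What the tests weigh is thus the scatter among 3 libraries of a group, which may not be the scatter among mice.

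The submandibular gland is built of acini that secrete fluid and mucins, ducts that modify and carry the saliva, and contractile myoepithelial cells around the acini and smaller ducts. KRT5, KRT14 and p63 (the product of Trp63) mark the basal layer of the larger ducts, and KRT14 also marks myoepithelial cells. KIT-positive cells of the intercalated ducts, SOX2-positive cells and ASCL3-positive duct cells have been proposed as progenitors in lineage tracing or transplantation work on salivary glands. SOX9 and SOX10 are transcription factors of the distal bud of the developing gland and remain in acinar, intercalated duct and myoepithelial cells. Ly6a (Sca-1, a surface protein anchored by a lipid) and Prom1 (prominin-1 or CD133, a membrane protein of the apical surface) have been used to enrich progenitors from many tissues, and Ly6a is also made by endothelial cells and induced by interferons.

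Promoter sequences of 3 members are shown because these genes come back together in the results: Kit and Ascl3 had the most closely matching levels across libraries of any pair of members tested, and Krt5 was the member that differed between the irradiated glands of the 2 days. Each is the 250 bases before the transcript start, from RefSeq on mouse GRCm38.p6, written 5′ to 3′ on the gene's strand. Capitals mark matches on either strand to TATAAA (the TATA box), to CANNTG (the E-box, bound by basic helix-loop-helix factors, the family of ASCL3) or to GGGCGG (the GC box). The windows are chr5:75574737-75574986 on the plus strand for Kit, the first of 2 windows listed for that gene, chr7:109731733-109731982 on the minus strand for Ascl3 and chr15:101712906-101713155 on the minus strand for Krt5.
Kit: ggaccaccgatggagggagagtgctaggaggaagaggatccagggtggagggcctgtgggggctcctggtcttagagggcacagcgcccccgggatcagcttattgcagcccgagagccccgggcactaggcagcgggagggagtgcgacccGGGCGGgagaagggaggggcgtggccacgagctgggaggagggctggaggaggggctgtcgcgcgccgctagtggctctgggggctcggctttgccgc
Ascl3: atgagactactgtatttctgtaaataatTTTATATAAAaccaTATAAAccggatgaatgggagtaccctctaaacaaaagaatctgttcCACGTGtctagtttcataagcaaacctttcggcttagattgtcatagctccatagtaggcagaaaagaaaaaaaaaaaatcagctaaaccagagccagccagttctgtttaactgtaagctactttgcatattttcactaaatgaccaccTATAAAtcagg
Krt5: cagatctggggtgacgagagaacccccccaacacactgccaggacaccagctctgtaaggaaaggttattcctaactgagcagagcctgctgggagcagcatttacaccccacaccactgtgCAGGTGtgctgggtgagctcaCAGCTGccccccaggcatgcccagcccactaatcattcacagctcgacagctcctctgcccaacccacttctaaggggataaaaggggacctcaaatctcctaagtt
The Kit window holds 70.8% G and C, 1 GC box and none of the other motifs. The Ascl3 window holds 34.8% G and C, 4 TATA matches, some of them overlapping, and 1 E-box. The Krt5 window holds 56% G and C and 2 E-boxes. Among all 32851 promoter windows of this length, 12.4% held a TATAAA match, 66.2% an E-box match and 32.7% a GC box match. The windows of Kit and Ascl3 therefore share none of these 3 motifs, and a match or its absence describes these letters and nothing about binding.

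Libraries held between 29082798 and 52201098 reads assigned to genes. Levels below are CPM, counts scaled to a common library size after TMM normalization (trimmed mean of M-values), and changes are log2 fold changes, each with its standard error, from edgeR's quasi-likelihood test over all 15 libraries with Benjamini-Hochberg adjustment over the 16042 genes. A gene counts as changed at an adjusted p under 0.05. The libraries differed in the tissue they held. In 6 of them (NT replicate 1, IR day 4 replicates 1 and 2, IR + iEV day 4 replicates 2 and 3, and IR + iEV day 30 replicate 2) the mean of 7 sublingual gland markers was 3.85 to 5.81 log2 CPM, against -1.49 to 0.43 log2 CPM in the other 9. Adipose markers were highest in IR + iEV day 4 replicate 2 (4.91 log2 CPM) and IR day 4 replicate 3 (3.61 log2 CPM), and skeletal muscle markers summed to 118 CPM in IR + iEV day 4 replicate 2 against 1.81 to 4.94 CPM elsewhere. In bulk tissue, fewer cells of a type and less RNA per cell cannot be told apart, and this holds for every result below.

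Set against exon length, the members lay far apart. Sox10 had the highest mean level over the 15 libraries, 37.8 CPM per kilobase, followed by Ascl3 at 24.8, Ly6a at 24.0, Krt14 at 21.0, Krt5 at 17.8 and Sox9 at 17.6 CPM per kilobase. Kit (3.88), Prom1 (3.58) and Trp63 (2.28) were several-fold lower on the same scale, and Sox2 was lowest at 0.632 CPM per kilobase. Counts of the members other than Sox2 ran from 320 to 6181 reads per library, and those of Sox2 from 0 to 226. The spread within a group of 3 libraries, as a coefficient of variation of CPM, was 2.22% to 41.3% with a median of 11.7% over the 45 group values of the members other than Sox2. Across all 15 libraries the highest CPM was 1.56 times the lowest for Sox9 and 3.24 times the lowest for Prom1.

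**Figure D1:**
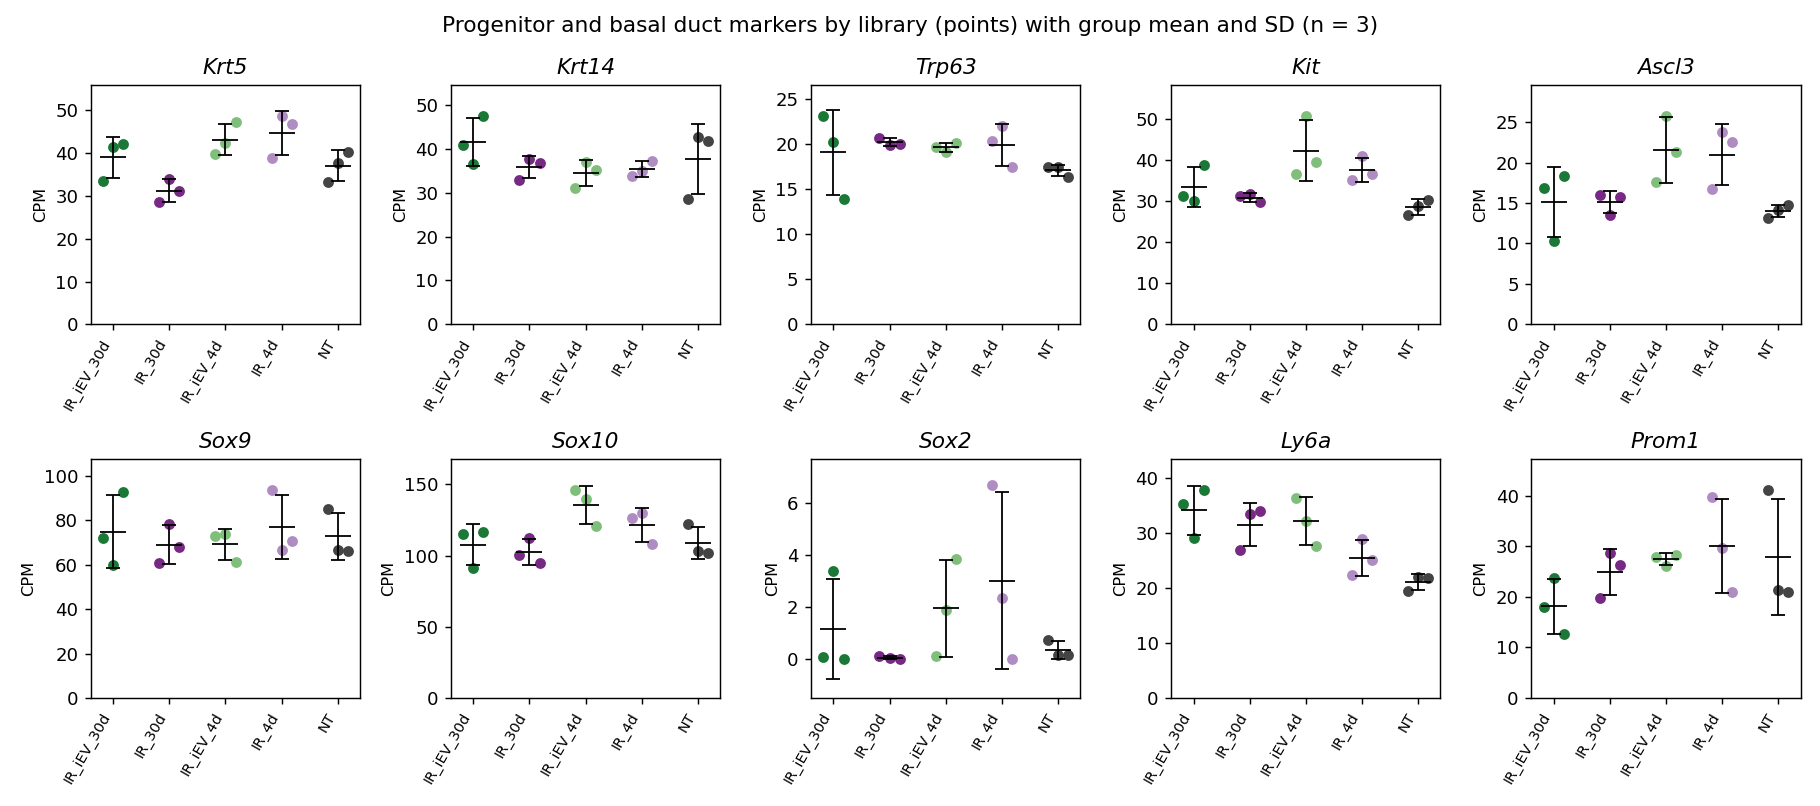
CPM of each of the 10 members in every library (points) with the group mean and SD (bars), one panel per gene, for the 5 groups of 3 libraries (IR_iEV_30d stands for IR + iEV day 30, and so on). Ly6a sat at 19.4 to 22.0 CPM in NT glands, below every irradiated library, and Sox2 was at 0.745 to 6.68 CPM in 6 libraries and at 0 to 0.157 CPM in the other 9.

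Ly6a was the member that moved most steadily: it rose relative to NT in 3 of the 4 irradiated groups. In IR + iEV day 30 glands it stood at 35.4, 29.1 and 37.9 CPM, and in IR day 30 glands at 27.0, 33.5 and 34.0 CPM. IR + iEV day 4 glands had 36.5, 32.3 and 27.7 CPM, IR day 4 glands 22.4, 28.9 and 25.1 CPM, and NT glands 19.4, 22.0 and 21.9 CPM. All 12 irradiated libraries were above all 3 NT libraries, and the lowest of them, IR day 4 replicate 1, was close to the highest NT library. The log2 change against NT was 0.69 ± 0.13 in IR + iEV day 30 glands (95% interval 0.42 to 0.97, adjusted p = 0.00977), 0.58 ± 0.13 in IR day 30 glands (0.30 to 0.85, adjusted p = 0.0151) and 0.61 ± 0.13 in IR + iEV day 4 glands (0.33 to 0.88, adjusted p = 0.0176). In IR day 4 glands it was 0.27 ± 0.13, which did not pass (adjusted p = 0.442). These comparisons share the 3 NT libraries. Beside the irradiated glands of the same day, the iEV difference in Ly6a was 0.12 at day 30 (95% interval -0.16 to 0.39, adjusted p = 0.755) and 0.34 ± 0.13 at day 4 (0.06 to 0.61, unadjusted p under 0.05, adjusted p = 0.652). The iEV difference at day 30 less that at day 4 was -0.22 (95% interval -0.60 to 0.16, adjusted p = 0.805), and IR day 30 glands exceeded IR day 4 glands by 0.31 ± 0.13 (adjusted p = 0.187).

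The Ly6a calls rest on few libraries. The call in IR + iEV day 30 glands was lost without NT replicate 1 (adjusted p = 0.0555). The call in IR day 30 glands was lost without NT replicate 1 (0.0664), IR day 30 replicate 2 (0.0764) or IR day 30 replicate 3 (0.0835). That in IR + iEV day 4 glands was lost without NT replicate 2 (0.0515), NT replicate 3 (0.0606), IR + iEV day 4 replicate 1 (0.0905) or IR + iEV day 4 replicate 2 (0.0525), and also with sublingual and adipose covariates (0.116) and in a separate fit of these groups (0.0598). The log2 change itself stayed between 0.51 and 0.81 in these leave-one-out fits of all 3 comparisons.

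Measures that could move with Ly6a were read beside it. The mean of 24 interferon-stimulated genes was 2.35 to 2.63 log2 CPM in IR + iEV day 30 glands, 3.05 to 3.25 in IR day 30, 2.37 to 2.44 in IR + iEV day 4, 1.30 to 1.54 in IR day 4 and 1.92 to 2.49 in NT. Across the 15 libraries Ly6a and that list had Pearson's r = 0.51, given as a description without a test. This was the highest positive value of Ly6a with any of the 24 lists, ahead of macrophages at 0.41. The mast cell list lay slightly farther from 0 in the other direction, at -0.53. The list was highest in IR day 30 glands and lowest in IR day 4 glands, and the group mean of Ly6a was highest in IR + iEV day 30 glands (34.1 ± 4.49 CPM) and lowest in NT glands (21.1 ± 1.49 CPM; SD, n = 3). The 12 endothelial markers summed to 76.5 to 93.8 CPM in IR + iEV day 30, 75.0 to 89.5 in IR day 30, 94.8 to 119 in IR + iEV day 4, 83.9 to 100.9 in IR day 4 and 83.3 to 116 in NT, and none of the 12 passed in any of the 8 comparisons with edgeR or limma-voom (0 to 2 under an unadjusted p of 0.05), while DESeq2 called 1 in each of the day 30 groups against NT. The part of either in the Ly6a result was not tested. Of the other LY6 family genes, 11 of 15 listed were found and 8 tested. Ly6e, a relative of Ly6a that interferons also induce, rose in IR day 30 glands, with 975 ± 51.2 CPM against 649.5 ± 113 CPM in NT (SD, n = 3), a log2 change of 0.59 ± 0.12 (adjusted p = 0.00801) that held in all 15 alternative fits. Ly6d, a marker of early B cells and of some epithelia, was also called higher in IR day 30 glands (0.81 ± 0.17, adjusted p = 0.0106), and Ly6c1, found on endothelial cells and monocytes, in IR + iEV day 4 glands (0.56 ± 0.13, adjusted p = 0.0302). The Ly6d call was lost without IR day 30 replicate 2 or 3 and with the sublingual-rich libraries left out. The Ly6c1 call was lost without any 1 of 4 libraries (NT replicates 2 and 3, IR + iEV day 4 replicates 1 and 2), with the tissue covariates, with the sublingual-rich libraries left out and in a separate fit. Reads of LY6 family genes that lie close to one another and resemble each other can be assigned to the wrong member, and how multi-mapped reads were counted is not given in the sources used here.

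Krt5, the keratin of basal cells, was lower in IR day 30 glands than in IR day 4 glands, and its usual partner Krt14 did not pass the same test. Krt5 stood at 33.6, 41.5 and 42.1 CPM in IR + iEV day 30 glands, against 28.6, 34.0 and 31.2 CPM in IR day 30 glands. IR + iEV day 4 glands had 39.9, 42.5 and 47.2 CPM, IR day 4 glands 39.0, 48.6 and 46.8 CPM, and NT glands 33.2, 37.6 and 40.4 CPM. Every IR day 30 library was below every IR day 4 library, and the NT range overlapped both. The log2 change of IR day 30 over IR day 4 glands was -0.52 ± 0.11 (95% interval -0.76 to -0.28, adjusted p = 0.00966). It was -0.45 without IR day 4 replicate 2 (adjusted p = 0.064) and -0.46 without IR day 30 replicate 1 (0.0569), both short of the threshold. Of these groups, 2 of the 3 IR day 4 libraries and no IR day 30 library were high in sublingual markers. The change was -0.51 with the sublingual and adipose levels as covariates (adjusted p = 0.0736) and -0.59 with the sublingual-rich libraries left out (adjusted p = 0.054), and the call was lost in both. Against NT neither irradiated group passed, with 0.27 ± 0.11 in IR day 4 glands (adjusted p = 0.340) and -0.25 ± 0.11 in IR day 30 glands (adjusted p = 0.290). With iEVs, Krt5 was higher than in IR day 30 glands by 0.32 ± 0.11 (95% interval 0.08 to 0.56), which was under 0.05 unadjusted and did not pass after adjustment (adjusted p = 0.234). At day 4 the iEV difference was -0.053 ± 0.11 (-0.29 to 0.19, adjusted p = 0.948). The test of the 2 iEV differences against each other gave 0.37 ± 0.16 (0.04 to 0.71), also under 0.05 unadjusted (adjusted p = 0.503).

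Krt14 had 40.8, 36.6 and 47.5 CPM in IR + iEV day 30 glands, 33.0, 37.6 and 36.8 CPM in IR day 30, 31.1, 37.0 and 35.2 CPM in IR + iEV day 4, 33.9, 35.0 and 37.3 CPM in IR day 4, and 28.6, 42.7 and 41.8 CPM in NT. All 5 groups overlapped one another, and the first NT library was the lowest of the 15. None of its 8 tests passed, and the log2 change of IR day 30 over IR day 4 glands was 0.015 (95% interval -0.26 to 0.29, adjusted p = 0.969), with a sign that turned in 5 of 15 alternative fits. Trp63, which encodes the transcription factor that maintains basal epithelial cells, ran from 13.9 to 23.1 CPM over the 15 libraries. Its group means were 19.1 ± 4.69 CPM in IR + iEV day 30, 20.2 ± 0.448 in IR day 30, 19.6 ± 0.487 in IR + iEV day 4, 19.9 ± 2.33 in IR day 4 and 17.1 ± 0.631 in NT (SD, n = 3 each). The IR day 30 and IR + iEV day 4 libraries all lay above the NT libraries, but the log2 changes of 0.24 (adjusted p = 0.429) and 0.20 (adjusted p = 0.504) did not pass.

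Squamous epithelium, another possible source of KRT5 and KRT14, was represented by 7 of 14 listed markers, which summed to 1.17 to 2.41 CPM over all libraries. Krt13 was at 0 in 12 libraries, Krt16 in 11 and Lor in 10. The other basal and myoepithelial genes, 24 in number, were mostly not called: 3 were called higher, beside 4.81% of all genes, and none lower in IR day 30 against IR day 4 glands, and their median log2 change was 0.034 beside -0.012 over all genes. The clearest of the 3 was Ngfr, the low-affinity neurotrophin receptor found on basal cells and nerves, with 378 ± 18.2 CPM in IR day 30 against 179.9 ± 21.0 CPM in IR day 4 glands (SD, n = 3; log2 change 1.07, adjusted p = 0.00459). Ngfr kept this call when any single library was left out and lost it with the tissue covariates (adjusted p = 0.0655). The other 2 were Lamb3, a laminin chain of the epithelial basement membrane, and Tagln, a smooth muscle actin-binding protein, and each lost its call when 1 of 5 libraries was left out. Against NT, Lamb3 (0.45 ± 0.11, adjusted p = 0.0246) and Ngfr (0.84 ± 0.20, adjusted p = 0.0256) were called higher in IR day 30 glands and Itgb4, the integrin of hemidesmosomes, in IR + iEV day 4 glands (0.44, adjusted p = 0.0347), and each of these calls was lost without some single libraries. Of 12 tested p63 targets and partners, Grhl1 and Dsc3 were called lower in IR + iEV day 4 against NT glands and Jag2 lower in IR day 30 against IR day 4 glands (-0.43 ± 0.13, adjusted p = 0.0485). Each of these 3 calls was lost when 1 of several single libraries was left out.

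Kit, the receptor tyrosine kinase for stem cell factor, rose in IR + iEV day 4 glands relative to NT, and its level in IR day 4 glands lay between. It stood at 31.4, 30.0 and 39.0 CPM in IR + iEV day 30 glands, and at 31.2, 31.8 and 29.8 CPM in IR day 30 glands. IR + iEV day 4 glands had 36.7, 50.8 and 39.6 CPM, IR day 4 glands 35.3, 41.0 and 36.7 CPM, and NT glands 26.6, 29.0 and 30.4 CPM. All 6 irradiated day 4 libraries lay above all 3 NT libraries. The rise passed the test in IR + iEV day 4 glands (0.56 ± 0.12, 95% interval 0.31 to 0.82, adjusted p = 0.0166) and missed it in IR day 4 glands (0.39 ± 0.12, 0.14 to 0.65, adjusted p = 0.139). The 2 day 4 groups differed by 0.17 (95% interval -0.08 to 0.42, adjusted p = 0.827), so a difference between them was not shown. IR day 30 glands were below IR day 4 glands by -0.28 ± 0.12 on the log2 scale (adjusted p = 0.188), which passed in a separate fit of these groups (adjusted p = 0.0165).

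The Kit call in IR + iEV day 4 glands was lost without NT replicate 2 (adjusted p = 0.0631), NT replicate 3 (0.0516) or IR + iEV day 4 replicate 2 (0.0882), the last of which had the highest levels of Kit and of adipose and muscle markers. When the 6 sublingual-rich libraries were left out, with 1 library left in each day 4 group, the change was 0.27 (adjusted p = 0.471), and the sign of the difference from IR day 4 glands turned, at -0.014. The call was also lost with the tissue covariates (adjusted p = 0.527) and in a separate fit of these groups (0.0929). Mast cells, which also carry KIT, were represented by 9 of 14 listed markers, which summed to 2.56 to 2.93 CPM in IR + iEV day 30, 2.72 to 3.32 in IR day 30, 3.97 to 4.81 in IR + iEV day 4, 1.87 to 3.46 in IR day 4 and 3.84 to 6.68 in NT. Of this list Cpa3 ran from 0 to 1.17 CPM and Fcer1a was at 0 in 12 libraries, and the part of mast cells in the Kit result was not tested. The melanocyte gene Dct was at 0 in 10 libraries and reached 0.414 CPM at most. Of 15 genes of KIT signalling, edgeR and limma-voom called none in either day 4 group against NT and DESeq2 called 1 in each, with 2 or 3 under an unadjusted p of 0.05. In IR day 30 against IR day 4 glands 3 of the 15 were called higher, beside 4.81% of all genes, among them Pik3cd, a PI3-kinase subunit of blood cells, at 6.403 ± 0.378 CPM against 2.56 ± 0.342 CPM (SD, n = 3). The Pik3cd call held in all 15 alternative fits, and the macrophage markers summed to 304 to 401 CPM in IR day 30 and 164 to 185 CPM in IR day 4 glands, whose part in it was not tested.

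Ascl3, the basic helix-loop-helix factor of a duct cell type that resembles ionocytes, had its highest group means in the same day 4 groups as Kit, and none of its edgeR tests over all 15 libraries passed. It stood at 16.8, 10.3 and 18.4 CPM in IR + iEV day 30 glands, 16.0, 13.5 and 15.8 CPM in IR day 30, 17.6, 25.7 and 21.3 CPM in IR + iEV day 4, 16.8, 23.7 and 22.5 CPM in IR day 4, and 13.2, 14.1 and 14.7 CPM in NT. The 6 irradiated day 4 libraries again lay above the NT libraries, with overlap between the 2 day 4 groups. The log2 change against NT was 0.62 ± 0.19 in IR + iEV day 4 (adjusted p = 0.103) and 0.58 ± 0.19 in IR day 4 glands (adjusted p = 0.195). Neither passed with edgeR, though DESeq2 called the first (0.63, adjusted p = 0.031). IR day 30 glands were below IR day 4 glands by -0.48 ± 0.19 (adjusted p = 0.169), which passed in a separate fit of these groups (adjusted p = 0.0179).

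Among 13 tested genes of the Ascl3 lineage and of ionocytes, the forkhead factors Foxi1 and Foxi2 were called lower in IR day 30 than in IR day 4 glands. Foxi1, the master regulator of proton-secreting and ionocyte-like cells, had 21.6 ± 0.801 CPM in IR day 30 and 35.9 ± 3.39 CPM in IR day 4 glands (SD, n = 3; -0.73 ± 0.13, adjusted p = 0.00293). Foxi2, a related factor, had 8.39 ± 0.647 and 14.9 ± 1.39 CPM in these groups (-0.82 ± 0.18, adjusted p = 0.00833). Both calls held in all 15 alternative fits. Foxi1 was also called higher in IR + iEV day 4 glands, at 38.4 ± 2.65 CPM against 26.1 ± 4.48 CPM in NT (0.56 ± 0.13, adjusted p = 0.0356), a call that leaving out any 1 of 5 libraries ended, as did the tissue covariates and a separate fit. Cftr, the chloride channel of ionocytes and duct cells, was called lower in IR day 30 glands, at 31.7 ± 5.65 CPM against 74.4 ± 8.83 CPM in NT (-1.23 ± 0.30, adjusted p = 0.0383), and that call was lost when any 1 of the 6 libraries was left out. The median log2 change of the 13 genes was -0.085 in IR day 30 against IR day 4 glands, beside -0.012 over all genes.

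**Figure D2:**
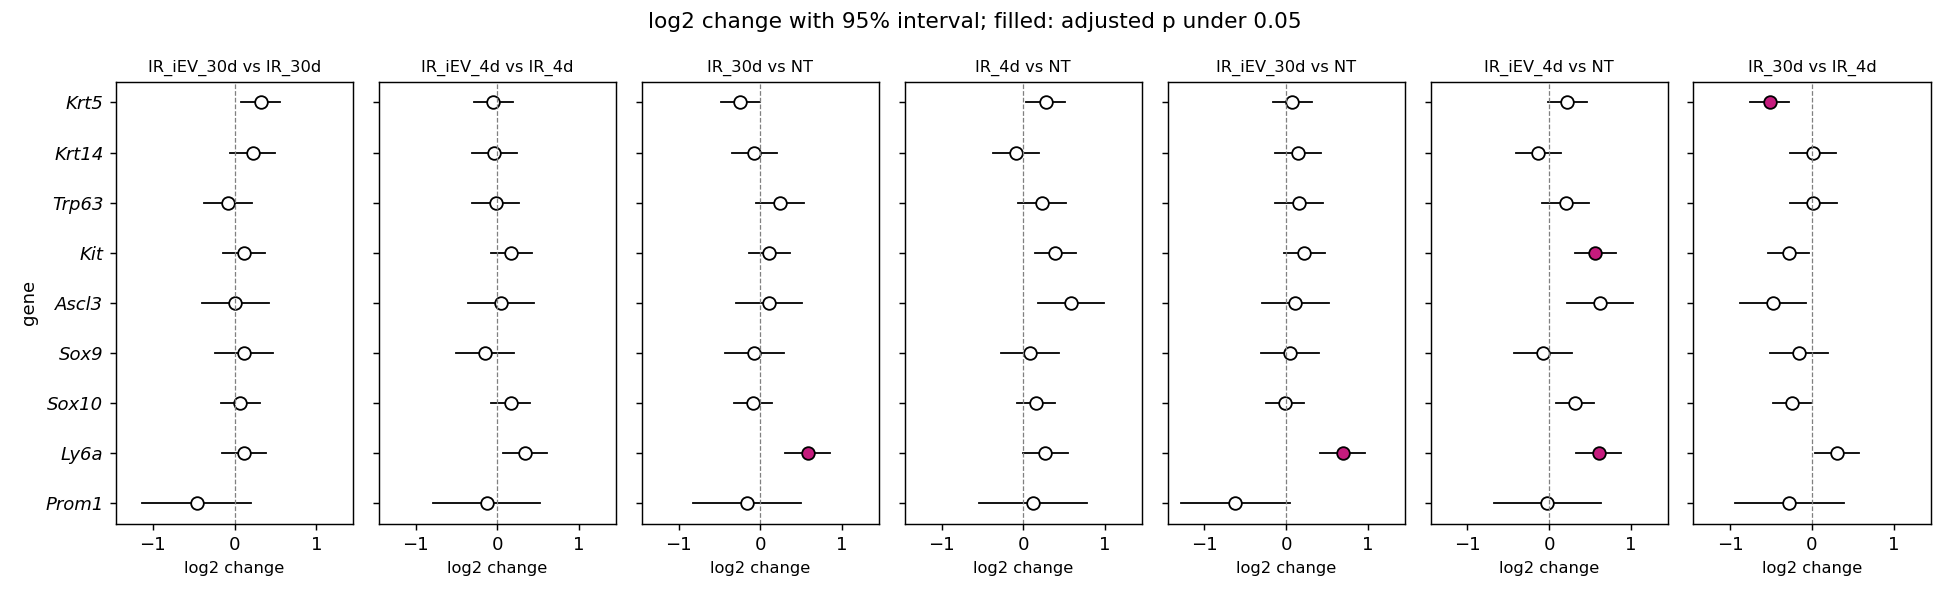
Log2 change with its 95% interval for 9 members (Sox2 is not drawn) in 7 comparisons, 1 panel each, from edgeR's quasi-likelihood test; filled points passed an adjusted p of 0.05. The filled points are Ly6a in 3 comparisons with NT, Kit in IR + iEV day 4 against NT and Krt5 in IR day 30 against IR day 4.

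Over all 15 libraries, none of the edgeR tests on Sox9 and Sox10 passed. Sox10 had 115, 91.4 and 116 CPM in IR + iEV day 30 glands, 100.5, 112 and 94.8 CPM in IR day 30, 146, 139.7 and 121 CPM in IR + iEV day 4, 126, 129.7 and 108 CPM in IR day 4, and 122, 103 and 102 CPM in NT. The IR + iEV day 4 libraries were the highest as a group and overlapped those of IR day 4 and NT. Their log2 change against NT was 0.32 ± 0.11 (adjusted p = 0.147), and that of IR day 30 against IR day 4 glands was -0.24 ± 0.11 (adjusted p = 0.233), which passed in a separate fit of these groups (adjusted p = 0.0482). Sox9 ran from 60.1 to 93.8 CPM, and its 5 group means lay between 69.2 and 77.1 CPM, with SDs within groups of 7.04 to 16.5 CPM. Of the other SOX family genes 9 were tested, and none passed in any of the 8 comparisons with edgeR, DESeq2 or limma-voom, with 0 to 2 of them under an unadjusted p of 0.05.

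Sox2, a transcription factor of progenitors in developing salivary glands and other epithelia, was detected as 8 reads or fewer in 9 of the 15 libraries. Its counts were 3, 105 and 0 in IR + iEV day 30 glands, 4, 1 and 0 in IR day 30, 4, 83 and 158 in IR + iEV day 4, 226, 77 and 0 in IR day 4, and 26, 5 and 8 in NT. High and low libraries thus stood side by side within 4 of the 5 groups. All 6 libraries high in sublingual markers had 26 to 226 Sox2 reads (0.745 to 6.68 CPM), and the other 9 had 0 to 8 (0 to 0.157 CPM). In the 3 libraries with no read, a count of 0 allows a level of up to 0.105 CPM in IR day 4 replicate 3, 0.0779 CPM in IR day 30 replicate 3 and 0.0725 CPM in IR + iEV day 30 replicate 3, at 3 counts per library and for counting error alone. The lowest adjusted p was that of IR day 30 against IR day 4, with a fitted log2 change of -5.89 (adjusted p = 0.194), which became -0.69 (adjusted p = 0.892) once the sublingual and adipose levels of the libraries were covariates. Because the libraries fall into separate clusters, no correlation of Sox2 with the sublingual level is given. The genes ranked most like Sox2 were Lman1l, Nkx2-3 and Muc19, and this ranking follows the same clusters. Muc19, a mucin of the sublingual gland, is itself among the markers that set the sublingual level, so its place repeats the split above. The source of the Sox2 reads was not tested.

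**Figure D3:**
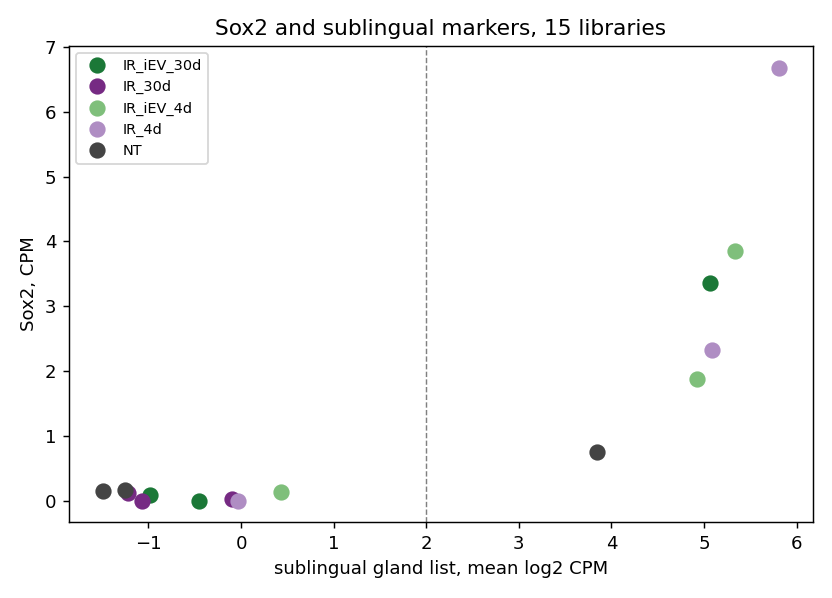
Sox2 level in CPM (vertical axis) against the mean log2 CPM of 7 sublingual gland markers (horizontal axis) in the 15 libraries, coloured by group, with a dashed line at 2 log2 CPM, the limit for calling a library high. The 6 libraries at 3.85 to 5.81 on the horizontal axis have 0.745 to 6.68 CPM of Sox2, and the 9 at -1.49 to 0.43 have 0 to 0.157 CPM.

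Prom1 was the most variable of the well detected members. It stood at 17.9, 23.7 and 12.7 CPM in IR + iEV day 30 glands, 19.7, 28.6 and 26.3 CPM in IR day 30, 27.9, 26.1 and 28.3 CPM in IR + iEV day 4, 39.6, 29.6 and 21.0 CPM in IR day 4, and 41.1, 21.4 and 21.0 CPM in NT. The highest values were single libraries of NT and IR day 4, both among those high in sublingual markers, and every pair of groups but IR + iEV day 30 against IR + iEV day 4 overlapped. The lowest group mean, 18.1 ± 5.50 CPM in IR + iEV day 30 glands, was below the 27.8 ± 11.5 CPM of NT by -0.62 on the log2 scale (95% interval -1.29 to 0.04, adjusted p = 0.415). It differed from IR day 30 glands by -0.46 (95% interval -1.13 to 0.21, adjusted p = 0.569). Prom1 shares 424 exonic bases with the antisense gene Gm16401 in the GENCODE annotation of GRCm38, and Krt5 shares 129 with the small RNA gene Gm44323 on the other strand. The library kit keeps strand, but the strand setting of the counting is not given in the sources used here.

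Few members passed in any comparison, and their number is given beside the share of all genes tested that passed. In IR + iEV day 30 against NT glands 1 of 10 passed, beside 1.1% of all genes tested, and in IR day 30 against NT 1 of 10, beside 4.48%. In IR + iEV day 4 against NT 2 of 10 passed, Kit and Ly6a, beside 2.31%. Under an unadjusted p of 0.05 there were 1, 2 and 4 members in these comparisons, in this order, beside 12.9%, 16.3% and 16.6% of all genes. In IR day 4 against NT none passed with edgeR, DESeq2 or limma-voom, beside 1.4%, and 3 were under an unadjusted p of 0.05, beside 11.6%. The 3 were Kit, Krt5 and Ascl3, 9 of the 10 members were above 0, and the members' median log2 change was 0.25 beside -0.0032 over all genes. Sox2, high only in sublingual-rich libraries, was among the 9. Of these groups IR day 4 replicates 1 and 2 and NT replicate 1 were sublingual-rich. With the tissue covariates 3 members were under an unadjusted p of 0.05, beside 1308 of 16042 genes. With each library left out in turn the number was 2 to 4, beside 1501 to 2364 genes. Members whose libraries all lay above those of NT numbered 3 in IR day 4 glands (Kit, Ascl3 and Ly6a), beside 9.06% of all genes. They numbered 1 in IR + iEV day 30 glands (Ly6a), beside 8.61%, and 4 in IR + iEV day 4 glands (Kit, Ascl3, Trp63 and Ly6a), beside 9.72%. In IR day 30 glands 2 lay above NT (Trp63 and Ly6a), beside 12.6%, and 1 below it (Sox2), beside 10.7%. In IR day 30 against IR day 4 1 of 10 passed, beside 6.81%, 6 were under an unadjusted p of 0.05, beside 19.8%, and the members' median was -0.26 beside -0.012. Sox2, seen mainly in the sublingual-rich libraries, was among the 6. With the tissue covariates 2 members were under an unadjusted p of 0.05, beside 2497 of 16042 genes. When each library was left out in turn the number was 2 to 4, beside 2557 to 2778 genes. Kit, Krt5 and Ascl3 had all their IR day 30 libraries below those of IR day 4, 3 members beside 15.1% of all genes. With iEVs against the irradiated glands of the same day, 0 of 10 passed with edgeR at day 30, beside 0.798%, and 0 of 10 at day 4, beside 0.0312%. At each day 1 member was under an unadjusted p of 0.05, beside 12.9% and 6.81% of all genes. None passed in the test of the 2 iEV differences against each other, beside 0.125%, with 1 under an unadjusted p of 0.05, beside 9.05%. Comparisons with NT share its libraries, and those among irradiated groups share the irradiated ones, so these counts do not add up as separate evidence.

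Levels of members were compared with one another over the 15 libraries, with Sox2 left out, in 36 pairs tested by permutation with 100000 resamples. The resamples shuffled libraries without regard to group, so these p-values also take in differences between group means. Coefficients within groups were not tested. The levels of Kit and Ascl3 went together, with Pearson's r = 0.85 (permutation p = 4e-05, adjusted p = 0.00144) and Spearman's rho = 0.88 (permutation p = 6e-05, adjusted p = 0.00216). The coefficient was 0.77 without the 2 libraries farthest from the median of Kit and 0.73 within groups, after group means were taken away. Within groups 9 of the 36 pairs were over 0.5 in size, among them Sox9 and Sox10 (0.72) and Kit and Krt14 (0.62). A high coefficient within groups was thus not particular to Kit and Ascl3. Krt14 and Prom1 ran opposite, with r = -0.79 (permutation p = 0.00062, adjusted p = 0.0112) and rho = -0.64 (permutation p = 0.0123, adjusted p = 0.0883). That relation fell to r = -0.52 without the 2 libraries farthest from the median of Krt14, so it rests in part on them, and was -0.73 within groups. No other pair reached an adjusted p of 0.05 for Pearson's r. Kit and Krt5 passed by Spearman's rho alone (rho = 0.73, adjusted permutation p = 0.0495), with r = 0.65 (adjusted permutation p = 0.0803). Within groups the coefficient of Kit and Krt5 was lower, at r = 0.40. The libraries share differences in tissue content, and the 6 high in sublingual markers had a median of 37.4 CPM of Kit and 19.0 CPM of Ascl3, against 31.4 and 16.0 CPM in the other 9. For Prom1 these medians were 28.9 and 21.0 CPM, and for Krt14 35.1 and 37.6 CPM. Most of the 6 libraries are from day 4, when Kit and Ascl3 were highest, so this split is confounded with day. Within groups the direction differed. Sublingual-rich NT replicate 1 was lowest of its group in Kit (26.6 CPM) and Ascl3 (13.2 CPM). So was IR + iEV day 30 replicate 2 (30.0 and 10.3 CPM). In IR + iEV day 4 glands the lowest was replicate 1 (36.7 and 17.6 CPM), which was not sublingual-rich. In IR day 4 glands the order was mixed.

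**Figure D4:**
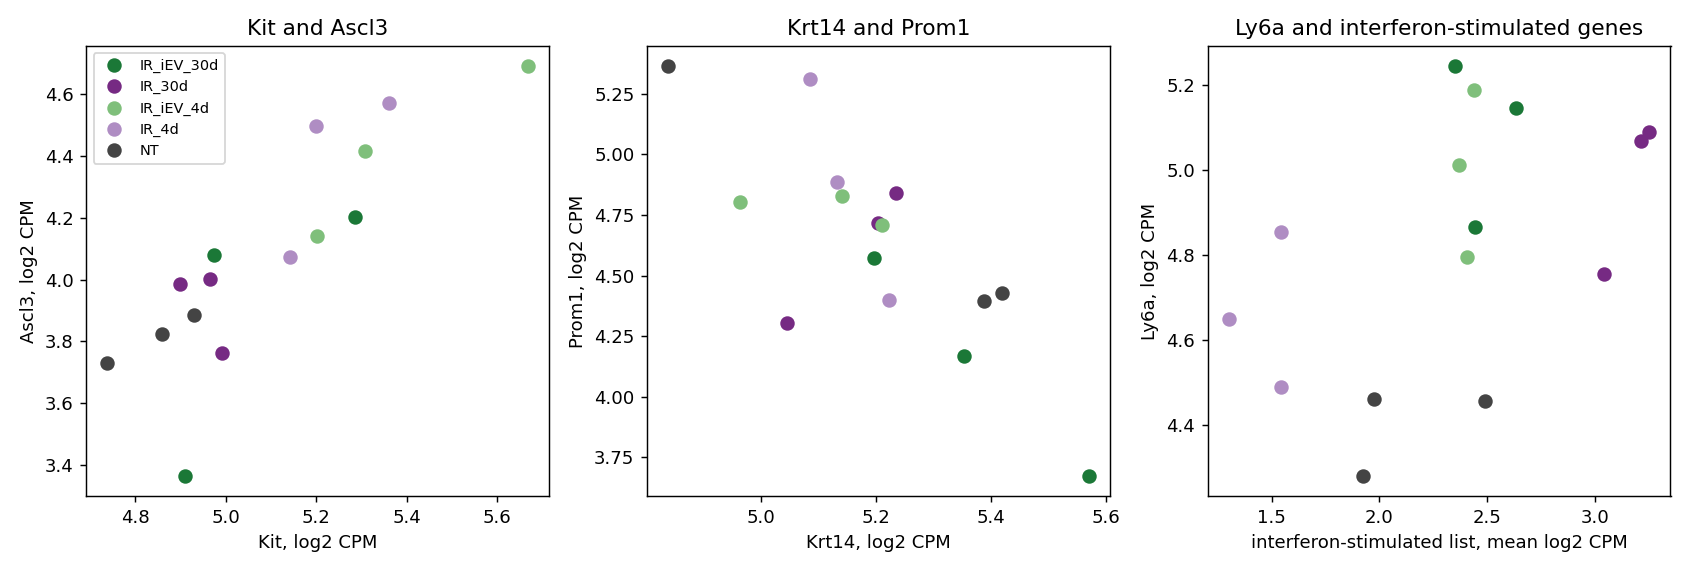
Log2 CPM of Ascl3 against Kit (left), of Prom1 against Krt14 (middle) and of Ly6a against the mean of 24 interferon-stimulated genes (right), one point per library, coloured by group. Kit and Ascl3 lie along a rising line (r = 0.85), Krt14 and Prom1 along a falling one (r = -0.79), and Ly6a and the interferon list have r = 0.51.

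Over the 12236 genes compared by mean level, the closest patterns to each member across the 15 libraries were described by Pearson's r, without a test. Each value is among the highest 3 of 12236 coefficients, so picking alone raises it, and no background was computed. Kit was closest to Capzb (0.93), an actin-capping protein, Klhl26 (0.92) and Alas1 (0.89), the first enzyme of heme synthesis. Ascl3 was closest to Pdcd11 (0.89) and Tubgcp6 (0.87), and Klhl26 was also among the 3 closest to Ascl3 (0.86). Krt5 was closest to Jag2 (0.85), a NOTCH ligand, Ptk7 (0.83), a WNT co-receptor, and Aqp5 (0.82), the water channel of acinar cells. Krt14 was closest to Ltbp2 (0.93), a matrix protein, Jph2 (0.89) and Fzd7 (0.88), a WNT receptor. Ly6a was closest to Eef1d (0.87), Fuca1 (0.87) and Rtraf (0.85). Of the rest, only the closest gene is given here: Slc25a48 (0.92) for Sox10, Gfpt1 (0.89) for Prom1, Kif24 (0.83) for Sox9 and Zbtb26 (0.79) for Trp63.

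Genes of the remaining epithelial and signalling lists moved in small numbers. Of 16 luminal duct keratins and duct genes, Krt23, a keratin of simple epithelia, fell at day 4: it had 55.5 ± 6.66 CPM in IR + iEV day 4, 59.8 ± 2.73 CPM in IR day 4 and 84.3 ± 3.99 CPM in NT glands (SD, n = 3 each; adjusted p = 0.00149 and 0.00971 against NT). The first of these calls held when any single library was left out, and the second was lost without NT replicate 3 or IR day 4 replicate 3. Both were lost with the tissue covariates and with the sublingual-rich libraries left out (adjusted p up to 0.388 and 0.223). Krt19, a duct keratin, was called higher in IR day 30 than in NT glands (0.83, adjusted p = 0.0246) and than in IR day 4 glands (0.74, adjusted p = 0.0358), and each call was lost without any 1 of several libraries. Of 16 other proposed stem and progenitor markers, Aldh1a1, an aldehyde dehydrogenase, was called higher and Cd44 and Cd34, adhesion proteins of the cell surface, lower in IR day 30 against NT glands, and all 3 calls were lost when 1 of several libraries was left out. Of 17 genes of WNT and NOTCH signalling, Notch3 was called higher and Lgr4 lower in IR + iEV day 4 against NT glands, and Jag2 lower in IR day 30 against IR day 4 glands. The Notch3 call was lost without any 1 of 3 libraries and the Lgr4 call without any 1 of 4. Both were also lost with the tissue covariates, and Notch3 was on the list of smooth muscle and pericyte genes as well. Of 12 genes of FGF signalling and ERK feedback only Fgf1 was called. It was higher in IR day 30 than in NT (0.78 ± 0.12, adjusted p = 0.000982) and IR day 4 glands (0.58 ± 0.12, adjusted p = 0.00737). Both of these calls held in all 15 alternative fits. With iEVs at day 30 Fgf1 was called lower than in IR day 30 glands (-0.60 ± 0.12, adjusted p = 0.0271), a call lost without any 1 of 5 libraries. Of 16 acinar identity genes, Aqp5 was called lower in IR day 30 than in NT (-0.45, adjusted p = 0.0121) and IR day 4 glands (-0.69, adjusted p = 0.000433). Only the latter call held in all 15 alternative fits. Aqp5 was higher with iEVs at day 30 (0.45, adjusted p = 0.0411). Ano1 and Spdef were called lower in IR day 30 than IR day 4 glands. These last 3 calls were each lost without any 1 of 5 libraries. Over all 24 lists there were 137 calls, of which 42 held in all alternative fits, 81 were lost when some single library was left out, and none changed sign. Interferon-stimulated genes gave 62 calls, of which 22 held in all fits, and macrophage markers gave 22, of which 11 held. None held in the basal and myoepithelial (6 calls), luminal duct (4), WNT and NOTCH (3), p63 (3) or other stem marker (5) lists. In the FGF list 2 of 3 held, and in the Ascl3-lineage list 2 of 4. The share of calls that held over all genes was not computed.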

How the data were processed

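RNA sequencing libraries were made from total RNA with a directional kit, per the labels' protocols. The submitters' processing notes name TopHat, HTSeq, DESeq2 and GRCm39, without versions. The deposited table holds whole-number counts of reads per gene symbol, which the authors had not normalized. Samples were grouped by their titles. Genes were filtered (filterByExpr, count minimum 10, total 15) and tested with edgeR 4.0.16 (R 4.3.3; TMM, robust quasi-likelihood F test, 1 coefficient per group, 10 residual degrees of freedom), with Benjamini-Hochberg adjustment over 16042 genes and a threshold of 0.05. Total counts of 29082798 to 52201098 limit the precision of low genes. The tests were tested on simulated counts. Alternatives were DESeq2 1.42.0, limma-voom (limma 3.58.1), other scalings, no filter, a replicate block, tissue covariates, separate fits and left-out libraries. Same-numbered libraries of different groups did not deviate together: 5 of 30 pairs had a correlation over 0.1, so numbers were not taken as pairing. No 2 libraries were alike within sampling noise. Exon lengths come from GENCODE on GRCm38, and 6 of 10 members matched a RefSeq promoter. All 10 members were named throughout, list genes only if called (at most 3 with the lowest p per list and comparison), and the 3 genes most like each member among those averaging at least 1 CPM. Members and lists were chosen with earlier results of these data known.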

Additional observations from a re-analysis of the deposited data

Results flagged for a closer look

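Krt5 in IR day 30 against IR day 4 glands was singled out because the 2 irradiation changes, which share the NT libraries, differ in a test of the difference itself. The log2 difference was -0.52 ± 0.11 (edgeR, adjusted p = 0.00966), with 28.6 to 34.0 CPM in IR day 30 glands, against 39.0 to 48.6 CPM in IR day 4 glands. The NT glands, at 33.2 to 40.4 CPM, overlapped both. The call was lost with the tissue covariates (adjusted p = 0.0736) and with the sublingual-rich libraries left out (adjusted p = 0.054).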

How the results depend on the processing

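The number of members called was the same under both other scalings, DESeq2, limma-voom and no low-count filter in all 8 comparisons, apart from 3 in place of 2 with DESeq2 in IR + iEV day 4 against NT, where Ascl3 was added. With a replicate block it was 2 in IR + iEV day 4 against NT, 1 in IR + iEV day 30 against NT, IR day 30 against NT and IR day 30 against IR day 4, and 0 in the other 4, the same as without the block, and with the block no named call changed. In IR + iEV day 4 against NT the count of 2 became 0 with the tissue covariates, 1 with the 6 sublingual-rich libraries left out, 0 in a separate fit of the 2 groups and 0 to 2 when each library was left out. In IR day 30 against IR day 4 the count of 1 became 0 with the covariates, 0 with the sublingual-rich libraries left out, 4 in a separate fit (Kit, Krt5, Sox10 and Ascl3) and 0 to 1 when each library was left out. It was 0 to 1 when each library was left out in IR day 30 against NT and in IR + iEV day 30 against NT. Of the 80 member changes, 39 had the other sign in at least 1 alternative. Among them were Kit in IR + iEV day 4 against IR day 4 glands (-0.014 with the sublingual-rich libraries left out) and Krt14 in IR day 30 against IR day 4 glands (-0.14 with covariates, -0.067 without those libraries, -0.022 to 0.071 when each library was left out). Over all changes, 87 of 1248 alternative values had the other sign, none of them called in either fit. Leaving out the sublingual-rich libraries left 1 library in each day 4 group, assumed to vary like the others. Depth limits Sox2 alone. The cause of these differences was not tested.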
